A study of Mus musculus with 8 samples.

Results

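The heat shock chaperones described here are 10 genes of mouse colon, taken by symbol from a deposited table of 18262 genes, and all 10 were found and tested. They are the small heat shock proteins Hspb1 and Hspb8, the HSP70 genes Hspa1a, Hspa1b and Hspa8, the HSP110 gene Hsph1, the J-domain gene Dnajb1, the HSP90 gene Hsp90aa1, and the mitochondrial chaperonin pair Hspd1 and Hspe1. Poly(A)-selected RNA of colon tissue from mice labelled WT was sequenced in 8 libraries, in a study of how GAA acts on colitis. The DSS + GAA group holds 4 libraries of mice given dextran sulfate sodium (DSS), which damages the gut lining and is used to cause colitis, together with ganoderic acid A (GAA), a triterpenoid of Ganoderma fungi. The DSS group holds 4 libraries of mice given DSS without GAA. DSS is thus common to both groups, and colon without DSS was not analysed here. The GAA dose is given as 20 mg/kg in the study's design, but each library carries its own label, with doses of 20, 21, 22 and 23 mg/kg. All 4 are treated here as a single group. The labels used here give neither age nor sex, nor the length of either treatment, and leave unsaid whether every library came from a different mouse, so p-values measure the spread between these libraries, which may be technical.

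Heat shock proteins are molecular chaperones, which bind unfolded or aggregating polypeptides. Small heat shock proteins hold such clients without ATP, HSP70 proteins bind and release them in cycles of ATP hydrolysis that J-domain proteins start and HSP110 proteins reset, and HSP90 proteins finish the folding of kinases and steroid receptors. The transcription factor HSF1 raises many of these genes when proteins misfold, by binding inverted repeats of the letters GAA in their promoters. In intestine, inducible HSP70 and the small protein encoded by Hspb1 are known as products of stressed epithelium, and Hspb1 and Hspb8 are also abundant in muscle.

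Levels are TPM, the authors' measure of reads per transcript length scaled to the same total in each library, so levels can be compared between genes but sequencing depth is unknown. Differences are log2 fold changes of DSS + GAA over DSS on the log2(TPM + 1) scale, with standard errors, from limma fitted to all 14217 genes with at least 1 TPM in at least 4 libraries. A gene counts as lower or higher when its Benjamini-Hochberg adjusted p over all tested genes is under 0.05. In this comparison 34.1% of all tested genes passed, 28.2% being lower and 5.96% higher, and the median log2 fold change over the 14217 genes was -0.25. The 4006 lower genes became 1676 and 2669 when DSS replicates 1 and 4 were left out in turn, and 2430 when DSS + GAA replicate 2 was. The 847 higher genes became 361 and 529 when DSS replicates 1 and 2 were left out in turn, and 1277, 417 and 545 when DSS + GAA replicates 1, 2 and 4 were. Another scaling between libraries changes that balance: 11.6% were lower and 13.3% higher after trimmed mean scaling, 11.3% and 11.8% after quantile normalization, and 9.2% and 15.2% after median centring. These scalings moved the median of all genes up by 0.25, 0.27 and 0.30, so each member's difference is also given relative to that median. For Hspb1, Hspb8, Hspa8 and Dnajb1 this value stands with the gene below. For Hspa1a, Hspa1b, Hsph1, Hsp90aa1, Hspd1 and Hspe1 it was -0.42, -0.15, -0.45, -0.36, -0.19 and 0.015. The trimmed mean scaling factors were 0.874 to 0.940 in the DSS + GAA libraries and 1.02 to 1.19 in the DSS libraries, so they too separate the groups.

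The small heat shock protein genes Hspb1 and Hspb8 fell in DSS + GAA colon, to 0.214 and 0.327 of the DSS mean. Of the 10 members, 3 were lower (Hspb1, Hspb8 and Hsp90aa1), 0 were higher and 7 did not pass, and at an unadjusted limma p under 0.05 the counts were the same, 3 lower and 0 higher. The share of lower members, 3 of 10, is near the 28.2% of all tested genes. The members had a median log2 fold change of -0.53, against -0.25 for all tested genes. The authors' deposited table, at its false discovery rate under 0.05, has 2 members lower (Hspb1 and Hspb8) and 0 higher, against 16.2% of its 18262 genes lower and 10.3% higher. The groups of libraries did not overlap for 2 of the 10 members, and did not overlap for 32.9% of all tested genes, 27.6% being lower in DSS + GAA. After trimmed mean scaling or median centring, 2 members were lower (Hspb1 and Hspb8) and 1 was higher (Dnajb1), and after quantile normalization 3 were lower and 0 higher (limma). The lower members numbered 5 with DSS + GAA replicate 1 left out, when 4435 of 14103 tested genes were lower. They numbered 4 with both that library and DSS replicate 5 left out, when 3957 of 13683 tested genes were lower.

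**Figure D1:**
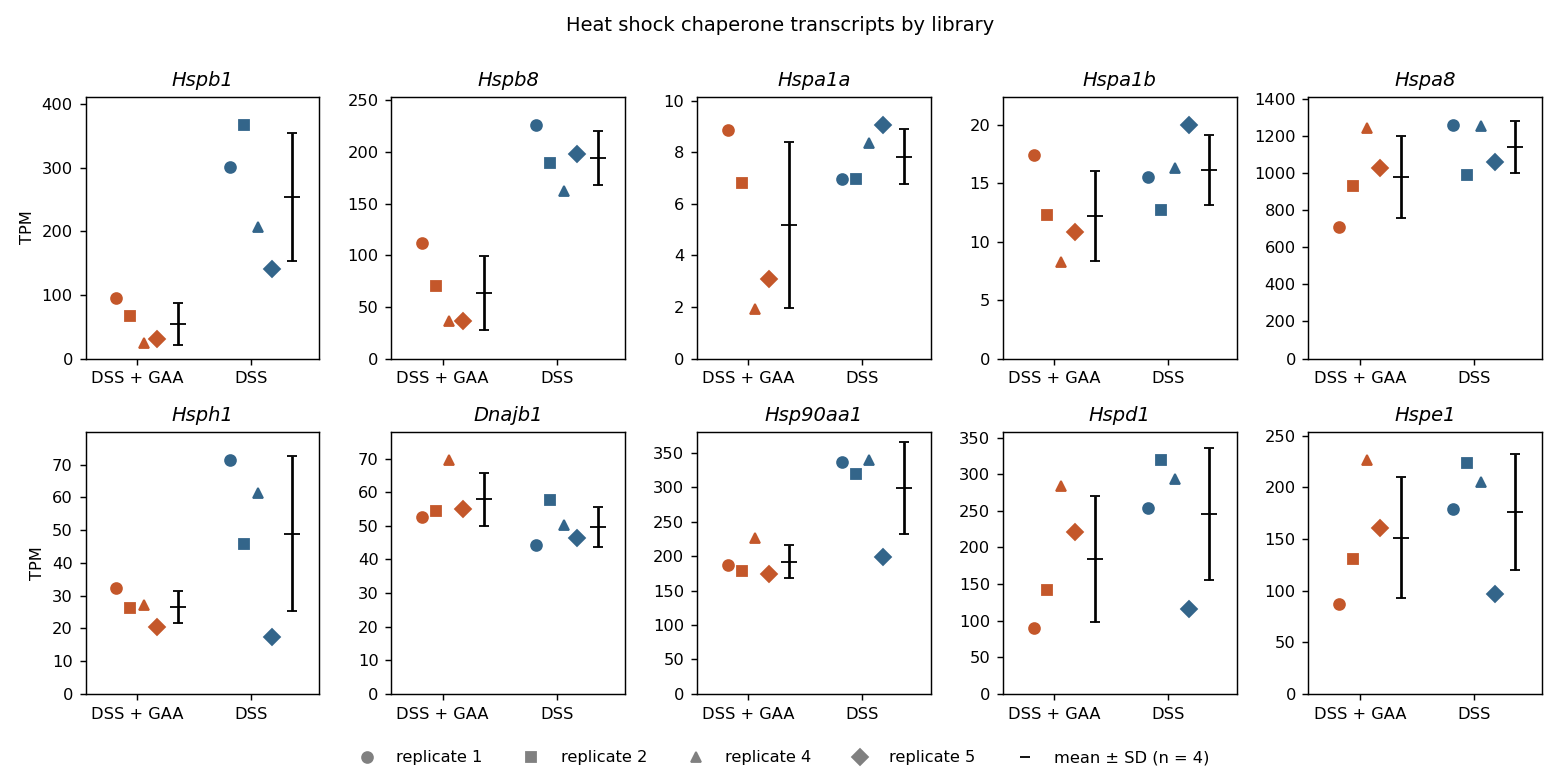
TPM of each of the 10 heat shock chaperone genes in the 4 DSS + GAA libraries (left) and the 4 DSS libraries (right), 1 panel per gene, with symbols for the replicate numbers and bars for the mean ± SD. Hspb1 and Hspb8 are the panels in which every DSS + GAA library lies below every DSS library, at 24.4 to 95.3 TPM in DSS + GAA against 140 to 367 TPM in DSS for Hspb1.

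Hspb1, the small heat shock protein known as HSP25 in mouse, had 95.3, 66.4, 24.4 and 31.0 TPM in DSS + GAA replicates 1, 2, 4 and 5, against 301, 367, 207 and 140 TPM in DSS replicates 1, 2, 4 and 5. All 4 DSS + GAA libraries lay below the lowest DSS library. Its mean was 54.3 ± 33.0 TPM in DSS + GAA and 254 ± 100.3 TPM in DSS (SD, n = 4 each). The log2 fold change was -2.32 ± 0.45 (limma adjusted p = 0.00774, -2.07 relative to the median of all genes), and 0.774% of the tested genes were lower by more. The two-sided exact permutation p over the 70 assignments of the libraries was 0.0286, the smallest this design can give. The authors' deposited table gives it a log2 fold change of -2.23 with a false discovery rate of 9.93e-09. Hspb1 lies on chromosome 5 (GRCm38, 135887919 to 135889563, plus strand), and 42.7% of the 100-base windows of its transcript occur letter for letter in the pseudogene Hsp25-ps1, so reads may have been shared.

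Hspb8, a small heat shock protein that works with the co-chaperone encoded by Bag3 to direct clients to autophagy, had 111, 69.7, 36.3 and 36.4 TPM in DSS + GAA replicates 1, 2, 4 and 5, against 226, 190, 162 and 198 TPM in DSS replicates 1, 2, 4 and 5. Here too no library of one group reached into the range of the other. The means were 63.5 ± 35.6 TPM in DSS + GAA and 194 ± 26.5 TPM in DSS (SD, n = 4 each). The log2 fold change was -1.75 ± 0.33 (limma adjusted p = 0.00757, -1.49 relative to the median of all genes), and the exact permutation p was 0.0286. In both genes DSS + GAA replicates 4 and 5 were the lowest 2 of the 8 libraries. Both calls held in each alternative tried, with limma adjusted p from 0.00146 to 0.0334 for Hspb1 and from 0.000935 to 0.0328 for Hspb8. Hspb8 lies on chromosome 5 (GRCm38, 116408491 to 116422864, minus strand).

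Promoter windows, from RefSeq on GRCm38.p6, cover 250 bases before to 50 bases after an annotated start and were found for 8 of the 10 members, all but Hspa8 and Hsp90aa1. The windows of both genes that fell are shown 5′ to 3′ on the strand of the gene, with capitals for the 8-letter unit GAANNTTC, which reads the same on both strands and which 7.86% of all 32817 windows hold. Neither window holds the longer motif GAANNTTCNNGAA on either strand.
Hspb1, chr5:135887669-135887968, plus strand: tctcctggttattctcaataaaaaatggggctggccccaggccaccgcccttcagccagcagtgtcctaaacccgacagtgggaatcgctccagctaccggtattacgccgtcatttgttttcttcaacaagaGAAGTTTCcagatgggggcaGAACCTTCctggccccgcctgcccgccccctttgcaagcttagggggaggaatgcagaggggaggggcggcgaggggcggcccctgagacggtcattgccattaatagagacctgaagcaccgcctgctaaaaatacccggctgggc
Hspb8, chr5:116422815-116423114, minus strand: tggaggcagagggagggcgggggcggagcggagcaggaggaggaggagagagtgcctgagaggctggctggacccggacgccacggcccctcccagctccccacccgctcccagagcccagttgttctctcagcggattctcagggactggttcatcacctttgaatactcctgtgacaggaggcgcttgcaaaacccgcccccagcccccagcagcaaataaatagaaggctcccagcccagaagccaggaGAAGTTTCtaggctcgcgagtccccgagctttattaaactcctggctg
The Hspb1 window holds 2 copies of the 8-letter unit and the Hspb8 window 1 copy. A match of letters is a description of the window only.

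Other small heat shock protein genes were read from a list of 8, of which 5 were tested, 2 were lower, 1 was higher and 2 did not pass. On leaving out single libraries, 4 were lower without DSS + GAA replicate 1, 3 without DSS replicate 2, and 1 in each of the other 6 cases, while 1 was higher in the absence of DSS + GAA replicate 1 and 0 in the other 7 cases. After each other scaling 1 was lower and 1 higher. Hspb7, a small heat shock protein of heart and muscle, had 22.4, 14.8, 6.62 and 6.62 TPM in DSS + GAA replicates 1, 2, 4 and 5, against 61.1, 59.1, 45.05 and 48.3 TPM in DSS replicates 1, 2, 4 and 5 (log2 fold change -2.16 ± 0.35, limma adjusted p = 0.00554). Its DSS + GAA libraries all lay below its DSS libraries, with replicates 4 and 5 lowest as in Hspb1 and Hspb8. Hspb6, a small heat shock protein of smooth muscle, was lower at 11.3 ± 4.27 TPM in DSS + GAA against 20.0 ± 3.25 TPM in DSS (-0.82 ± 0.23, limma adjusted p = 0.0262), and its adjusted p reached 0.164 under an alternative. The lens and muscle crystallin gene Cryab averaged 28.0 ± 13.8 TPM in DSS + GAA and 37.0 ± 5.68 TPM in DSS, a difference that did not pass (-0.50 ± 0.31, limma adjusted p = 0.233). Hspb2, at 2.56 ± 0.93 TPM in DSS + GAA against 4.45 ± 1.04 TPM in DSS, did not pass (limma adjusted p = 0.0641). Hspb11, which despite its symbol encodes a subunit of the intraflagellar transport machinery, was higher at 16.3 ± 2.14 TPM in DSS + GAA against 11.7 ± 1.08 TPM in DSS (0.44 ± 0.14, limma adjusted p = 0.0338).

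Cell type markers moved between the same groups, and their part in the falls of Hspb1 and Hspb8 was not tested. In bulk tissue fewer cells of a type and less RNA per cell cannot be told apart. Smooth muscle markers overlapped between the groups in all but 1 of 12, which was lower. All 12 had a negative log2 fold change, with a median of -0.37 against -0.25 for all tested genes. Of the 12, 0 were higher (limma, also 1 lower and 0 higher unadjusted, and 0 and 0 in the authors' deposited table). Their summed level ranged from 1985 to 4753 TPM in DSS + GAA and from 2473 to 6647 TPM in DSS. Per 1000 TPM of these markers, Hspb1 stood at 12.3 to 20.0 TPM in DSS + GAA and 21.1 to 149 TPM in DSS. Hspb8 stood at 15.97 to 23.5 TPM in DSS + GAA against 29.8 to 76.7 TPM in DSS. These values were chosen after the fall was seen and not tested. No other marker list was used as a denominator. Fibroblast and matrix markers (median log2 fold change -1.26) and enteric neuron and glia markers (-1.68) had lower medians than smooth muscle. Of 9 fibroblast and matrix markers 4 were lower (summed level 394 to 1392 TPM in DSS + GAA against 1646 to 4728 TPM in DSS), of 10 enteric neuron and glia markers 9 were lower (77.9 to 222 TPM in DSS + GAA against 329 to 469 TPM in DSS), and of 8 endothelial markers 6 were lower (30.8 to 121 TPM in DSS + GAA against 121 to 202 TPM in DSS). Of 10 neutrophil markers 8 were lower (198 to 719 TPM in DSS + GAA against 2147 to 6514 TPM in DSS). At an unadjusted limma p under 0.05, 1 of the 10 was higher, and 1 was higher in the authors' deposited table. Of 5 erythroid markers 5 were lower (9.70 to 62.7 TPM in DSS + GAA against 191 to 386 TPM in DSS), and of 8 macrophage markers 1 was lower (325 to 708 TPM in DSS + GAA against 583 to 811 TPM in DSS). Of 10 epithelial markers 4 were higher (16809 to 18349 TPM in DSS + GAA against 10713 to 13767 TPM in DSS), and of 7 tested T and NK cell markers 6 were higher (96.9 to 248 TPM in DSS + GAA against 44.9 to 63.6 TPM in DSS). B and plasma cell markers gave 0 calls of 6 (limma, 0 unadjusted and 0 in the authors' deposited table; 882 to 3225 TPM in DSS + GAA against 1167 to 1959 TPM in DSS), and 4 skeletal and cardiac muscle genes were tested, with 1 lower, at a summed level of 9.61 to 12.4 TPM in DSS + GAA against 12.8 to 18.4 TPM in DSS. Immediate early genes, which respond within minutes to handling and injury, were lower in 14 of 17 (1326 to 1404 TPM in DSS + GAA against 2022 to 3559 TPM in DSS). Like Hspb1 and Hspb8, the summed markers of smooth muscle, fibroblasts, endothelium, enteric neurons and glia, neutrophils, macrophages and erythroid cells were lowest in DSS + GAA replicates 4 and 5. None of the lists held a marker at 0 in every library.

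Several of these marker counts rested on single libraries. The 6 lower endothelial markers became 1, 3 and 3 when DSS replicates 1, 2 and 4 were left out in turn and 3, 3 and 3 when DSS + GAA replicates 2, 4 and 5 were, and 3 after each other scaling. The 4 higher epithelial markers became 2 when DSS replicate 1 was left out, 1 and 2 when DSS + GAA replicates 2 and 4 were, and 6, 2 and 7 after trimmed mean scaling, quantile normalization and median centring. With DSS + GAA replicate 1 left out, 7 fibroblast and matrix markers, 5 macrophage markers, 3 smooth muscle markers and 2 skeletal and cardiac muscle genes were lower. The lower smooth muscle marker was lost when DSS replicates 1 or 4, or DSS + GAA replicates 4 or 5, were left out, and after trimmed mean scaling and median centring. Immediate early genes numbered 8 lower when DSS replicate 1 was left out, and 8 after trimmed mean scaling and median centring. Lower counts of neutrophil (6 to 9), enteric neuron and glia (7 to 10) and erythroid markers (4 to 5) and the higher count of T and NK cell markers (5 to 6) moved less on leaving out single libraries.

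The stress-inducible HSP70 genes Hspa1a and Hspa1b were the lowest of the 10 members in both groups and did not pass. Hspa1a had 8.86, 6.82, 1.92 and 3.08 TPM in DSS + GAA replicates 1, 2, 4 and 5, against 6.94, 6.95, 8.35 and 9.06 TPM in DSS replicates 1, 2, 4 and 5. DSS + GAA replicates 2, 4 and 5 lay below all DSS libraries, replicate 2 by a small margin, while DSS + GAA replicate 1 lay within their range. Hspa1b had 17.4, 12.3, 8.29 and 10.8 TPM in DSS + GAA and 15.5, 12.7, 16.3 and 20.0 TPM in DSS, in the same order of replicates, and again the DSS + GAA libraries other than replicate 1 lay below the DSS values. The log2 fold changes were -0.67 ± 0.36 for Hspa1a (limma adjusted p = 0.170) and -0.40 ± 0.22 for Hspa1b (limma adjusted p = 0.178), with exact permutation p of 0.200 and 0.171. Without DSS + GAA replicate 1 both were lower, at -0.95 and -0.58 (limma adjusted p = 0.0317 and 0.0328), but with DSS replicate 5 left out as well neither passed (limma adjusted p = 0.0658 and 0.0717). Without DSS + GAA replicate 4 the differences were -0.37 and -0.25 (limma adjusted p = 0.362 and 0.377).

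These genes are neighbours on chromosome 17 and near copies of each other, so reads could be split between them. Of the 100-base windows of the Hspa1a transcript, 47.1% occur letter for letter in the Hspa1b transcript, and the Hspa1a gene (34969190 to 34972156, minus strand, GRCm38) overlaps the annotated gene Gm20481 on the other strand over 2225 bases. Their promoter windows differ at 4 of 300 bases. They are shown to let the copies be compared, with capitals for GAANNTTC.
Hspa1a, chr17:34972107-34972406, minus strand: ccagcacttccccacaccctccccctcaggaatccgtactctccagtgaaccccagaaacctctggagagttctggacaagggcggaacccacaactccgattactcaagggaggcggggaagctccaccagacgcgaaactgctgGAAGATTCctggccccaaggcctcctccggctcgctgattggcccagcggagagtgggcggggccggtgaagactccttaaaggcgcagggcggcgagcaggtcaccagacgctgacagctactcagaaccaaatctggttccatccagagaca
Hspa1b, chr17:34959189-34959488, minus strand: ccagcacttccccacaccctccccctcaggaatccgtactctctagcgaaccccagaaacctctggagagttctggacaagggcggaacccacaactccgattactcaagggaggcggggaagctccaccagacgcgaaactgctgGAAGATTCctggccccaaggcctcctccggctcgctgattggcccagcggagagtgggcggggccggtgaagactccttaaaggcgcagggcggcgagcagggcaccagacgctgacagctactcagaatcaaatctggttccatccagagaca
Each holds 1 copy of the 8-letter unit and no match to the longer motif.

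Hspa8, the constitutive HSP70 of the cytosol, was the highest member by TPM in every library. It had 713, 931, 1245 and 1029.9 TPM in DSS + GAA replicates 1, 2, 4 and 5, against 1263, 990.2, 1257 and 1059 TPM in DSS replicates 1, 2, 4 and 5. The groups overlapped, with DSS + GAA replicate 1 lowest, and the log2 fold change of -0.24 ± 0.19 did not pass (limma adjusted p = 0.336, 0.01 relative to the median of all genes). With DSS + GAA replicate 1 left out it was -0.0987, and with replicate 4 of that group left out -0.37. Of its 100-base transcript windows, 62.8% also occur in other annotated genes, the largest such share of the 10 members, so its level is uncertain. It made up 51.1% to 59.1% of the summed TPM of the members in DSS + GAA libraries and 39.1% to 55.7% in DSS libraries. That sum was 1396, 1618, 2150.3 and 1742 TPM in DSS + GAA replicates 1, 2, 4 and 5 and 2699, 2533, 2600.3 and 1903 TPM in DSS replicates 1, 2, 4 and 5. Hspb1 and Hspb8 together made up 2.83% to 14.8% of it in DSS + GAA and 14.2% to 22.0% in DSS.

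Dnajb1, the J-domain partner of inducible HSP70, was the member with a positive difference, which did not pass on TPM as deposited. It had 52.7, 54.3, 69.6 and 54.9 TPM in DSS + GAA replicates 1, 2, 4 and 5, against 44.3, 57.8, 50.1 and 46.5 TPM in DSS replicates 1, 2, 4 and 5. DSS replicate 2 lay above 3 of the DSS + GAA libraries. The log2 fold change was 0.21 ± 0.13 (limma adjusted p = 0.232, 0.47 relative to the median of all genes), and it was called higher after trimmed mean scaling (0.48, limma adjusted p = 0.0389) and median centring (0.52, limma adjusted p = 0.0341). Without DSS + GAA replicate 4 the difference was 0.12 (limma adjusted p = 0.485).

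Hsph1, the HSP110 that exchanges nucleotide on HSP70, had 32.3, 26.2, 27.1 and 20.5 TPM in DSS + GAA replicates 1, 2, 4 and 5, against 71.4, 45.7, 61.3 and 17.4 TPM in DSS replicates 1, 2, 4 and 5. DSS replicate 5 was the lowest of the 8 libraries, while the other 3 DSS libraries lay above all 4 DSS + GAA libraries. The log2 fold change of -0.71 ± 0.38 did not pass (limma adjusted p = 0.179), and without DSS replicate 5 it was -1.13 and passed (limma adjusted p = 0.0117), while without DSS replicate 1 it was -0.47 (limma adjusted p = 0.413). The first Hsph1 window holds 1 match to the longer motif, shown in capitals, which starts 36 bases after the annotated start. In window 2, from another annotated start, the same match starts 15 bases after it. Of all windows, 0.603% hold the longer motif.
Hsph1, chr5:149636287-149636586, minus strand: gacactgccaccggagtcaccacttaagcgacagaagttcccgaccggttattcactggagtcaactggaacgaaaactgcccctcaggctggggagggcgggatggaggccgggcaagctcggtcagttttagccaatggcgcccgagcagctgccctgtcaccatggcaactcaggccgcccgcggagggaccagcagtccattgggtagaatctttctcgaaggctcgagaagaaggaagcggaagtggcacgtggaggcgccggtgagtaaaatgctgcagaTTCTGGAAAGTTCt
None of the 100-base windows of the Hsph1, Hspb8 and Dnajb1 transcripts occurs in another annotated gene.

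Hsp90aa1, the stress-responsive HSP90, was lower on TPM as deposited. It had 188, 179, 227 and 174 TPM in DSS + GAA replicates 1, 2, 4 and 5, against 337, 319, 339.5 and 199 TPM in DSS replicates 1, 2, 4 and 5. DSS replicate 5 lay inside the DSS + GAA range and the other 3 DSS libraries lay above it. The means were 192 ± 24.2 TPM in DSS + GAA and 299 ± 66.9 TPM in DSS (SD, n = 4 each), and the log2 fold change was -0.61 ± 0.19 (limma adjusted p = 0.0347, exact permutation p = 0.0571). The call was lost after trimmed mean scaling (-0.34, limma adjusted p = 0.191) and median centring (-0.31, limma adjusted p = 0.236). It was also lost on leaving out a single library, with limma adjusted p of 0.107, 0.0824 and 0.0894 for DSS replicates 1, 2 and 4, and of 0.0908 and 0.0755 for DSS + GAA replicates 2 and 5, and the authors' deposited table gives it a false discovery rate of 0.434. Of its transcript windows, 47.5% also occur in other annotated genes.

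**Figure D2:**
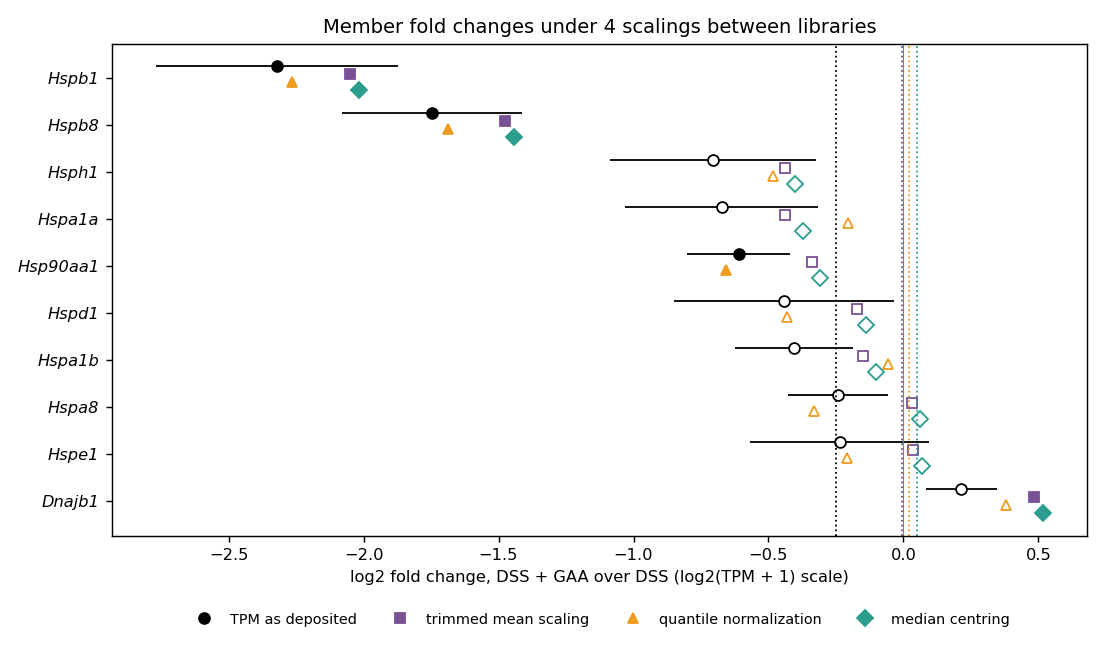
Log2 fold change of DSS + GAA over DSS for each member, under 4 scalings between libraries, with filled symbols for a limma adjusted p under 0.05 and standard errors on TPM as deposited. Hspb1 and Hspb8 stay filled under all 4, Hsp90aa1 under 2 and Dnajb1 under the other 2, and the dotted lines mark the median of all tested genes under each scaling.

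Hspd1 and Hspe1 encode the mitochondrial chaperonin ring and its lid, and neither passed. Hspd1 had 89.8, 142, 284 and 221 TPM in DSS + GAA replicates 1, 2, 4 and 5, against 254, 319, 293 and 116 TPM in DSS replicates 1, 2, 4 and 5. Hspe1 had 86.8, 131, 226 and 161 TPM in DSS + GAA and 179, 224, 205 and 96.6 TPM in DSS, in the same order. In both genes DSS + GAA replicate 1 and DSS replicate 5 were the lowest 2 of the 8 libraries, so the spread lay within the groups. The log2 fold changes were -0.44 ± 0.41 for Hspd1 (limma adjusted p = 0.422) and -0.24 ± 0.33 for Hspe1 (limma adjusted p = 0.606). On leaving out single libraries they ranged from -0.77 (DSS replicate 5) to -0.14 (DSS + GAA replicate 1) for Hspd1 and from -0.50 to 0.000516, with the same libraries, for Hspe1.

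Both genes lie head to head on chromosome 1 (GRCm38), Hspd1 from 55077835 to 55088243 on the minus strand and Hspe1 from 55088132 to 55091307 on the plus strand, and their annotations overlap by 112 bases. The labels do not state whether strand was kept, so reads in the overlap cannot be assigned. Their promoter windows share 285 bases, for the second of the annotated Hspd1 starts, so the Hspe1 window is shown for the pair, with capitals for the longer motif.
Hspe1, chr1:55087898-55088197, plus strand: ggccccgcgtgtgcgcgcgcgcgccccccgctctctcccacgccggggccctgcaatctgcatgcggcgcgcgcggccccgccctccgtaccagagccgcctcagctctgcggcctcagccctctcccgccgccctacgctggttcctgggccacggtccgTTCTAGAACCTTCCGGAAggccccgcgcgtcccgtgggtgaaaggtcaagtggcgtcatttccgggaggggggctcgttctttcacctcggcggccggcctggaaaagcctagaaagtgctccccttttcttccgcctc
It holds 2 overlapping matches to the longer motif, between 89 and 72 bases before the Hspe1 start. The 8 members with a window have 11 windows, and a member was counted when any of its windows matched. By that count 3 members held the longer motif (Hsph1, Hspd1 and Hspe1) and 7 held the 8-letter unit, and none of the 3 passed. For Hspd1 only the second window matched. The shares given for all windows are per window, so they are not on the same footing.

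Within a library, a ratio of 2 genes does not depend on scaling between libraries. The balance within and between chaperone classes was therefore compared as 6 log2 ratios of TPM, by a two-sided exact permutation test, and 0 of the 6 passed. Hspb8 over Hspb1 averaged 0.28 ± 0.21 in DSS + GAA and -0.31 ± 0.60 in DSS, and Dnajb1 over Hspa8 averaged -4.06 ± 0.21 in DSS + GAA and -4.52 ± 0.31 in DSS (SD of log2 ratios, n = 4 each, exact permutation p = 0.114 and adjusted p = 0.257 for each). For both, all 4 DSS + GAA libraries lay above the DSS mean. Hsp90aa1 over Hsp90ab1, its constitutive counterpart, averaged -1.67 ± 0.26 in DSS + GAA and -1.42 ± 0.05 in DSS (exact permutation p = 0.143, adjusted p = 0.257). Hspd1 over Hspe1 averaged 0.24 ± 0.19 in DSS + GAA and 0.45 ± 0.12 in DSS (exact permutation p = 0.171, adjusted p = 0.257). Hsph1 over Hspa8 differed by -0.48 (exact permutation p = 0.371, adjusted p = 0.446) and the sum of Hspa1a and Hspa1b over Hspa8 by -0.30 (exact permutation p = 0.600, adjusted p = 0.600). Leaving out single libraries moved Hsph1 over Hspa8 from -0.88 (DSS replicate 5) to -0.29 (DSS replicate 1), Hsp90aa1 over Hsp90ab1 from -0.36 to -0.14 (DSS + GAA replicates 1 and 5), and Hspb8 over Hspb1 from 0.37 to 0.85 (DSS replicates 2 and 5). The differences ranged from -0.67 to 0.0544 for Hspa1a and Hspa1b over Hspa8 (DSS + GAA replicates 1 and 4), from 0.36 to 0.60 for Dnajb1 over Hspa8 and from -0.28 to -0.14 for Hspd1 over Hspe1.

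**Figure D3:**
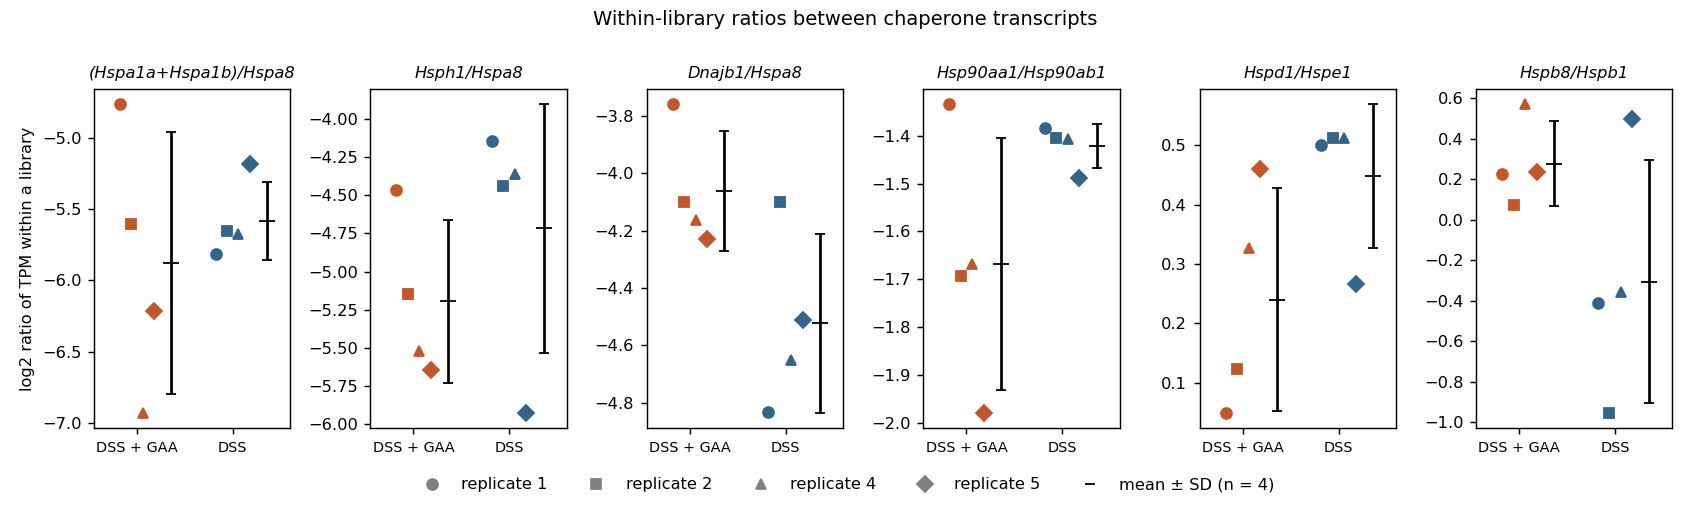
Log2 ratio of TPM within each library for 6 pairs of chaperone transcripts, DSS + GAA left of DSS, with symbols for replicate numbers and bars for the mean ± SD. The groups overlap in all 6 panels, and DSS replicate 5 lies apart from the other DSS libraries in Hsph1/Hspa8 and Hspd1/Hspe1.

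The rest of the chaperone network was read from 7 lists with 122 tested genes, Ddit3 being counted under each of its identifiers. Of the 122, 26 were lower, 4 were higher and 92 did not pass, against 28.2% and 5.96% of all tested genes. The median log2 fold change of these genes was -0.24. Scaling decided the balance: 6 were lower and 14 higher after trimmed mean scaling and after median centring, and 15 and 8 after quantile normalization. With DSS replicate 1 left out 9 were lower, with DSS replicate 4 left out 11, with DSS + GAA replicate 2 left out 10 and with DSS + GAA replicate 5 left out 17. The 4 higher genes became 0, 1 and 1 when DSS replicates 1, 2 and 5 were left out in turn, and 8, 0, 1 and 2 when DSS + GAA replicates 1, 2, 4 and 5 were. Of the 30 calls, 6 held in every alternative tried, and all 6 were lower (Hsf2, Bag2, Hspa2, Dnajb4, Fkbp5 and Hspb7).

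Among HSP70 partners and the HSF1 axis, 6 of 24 tested genes were lower and 1 was higher, with 3 lower and 2 higher after trimmed mean scaling. The higher gene was lost when DSS replicates 1, 2 or 5, or DSS + GAA replicates 2 or 4, were left out. Hspa2, an HSP70 known from testis and also present in other tissues, had 36.8, 23.1, 11.7 and 9.58 TPM in DSS + GAA replicates 1, 2, 4 and 5, against 105, 64.7, 73.4 and 72.7 TPM in DSS replicates 1, 2, 4 and 5 (log2 fold change -2.07 ± 0.37, limma adjusted p = 0.00655). All its DSS + GAA libraries lay below its DSS libraries. The nucleotide exchange factor gene Bag2 averaged 6.55 ± 2.66 TPM in DSS + GAA and 15.5 ± 3.79 TPM in DSS (limma adjusted p = 0.0124), and the heat shock factor gene Hsf2 averaged 5.80 ± 1.07 TPM in DSS + GAA and 12.2 ± 1.39 TPM in DSS (limma adjusted p = 0.00578). Bag3, the partner of Hspb8, averaged 63.6 ± 2.97 TPM in DSS + GAA and 95.8 ± 21.0 TPM in DSS (-0.56 ± 0.16, limma adjusted p = 0.0292), and Bag5 averaged 16.8 ± 2.48 TPM in DSS + GAA and 26.0 ± 3.32 TPM in DSS (limma adjusted p = 0.0136). Their adjusted p reached 0.265 for Bag3 and 0.0947 for Bag5 under an alternative. Hsf1 itself, at 8.73 to 10.3 TPM in DSS + GAA libraries and 9.79 to 13.9 TPM in DSS libraries, did not pass (-0.19 ± 0.15, limma adjusted p = 0.343), and its difference was positive after each of the 3 other scalings. The higher gene was Hspa4l, an HSP110 relative named after its value was seen, at 38.1 ± 8.81 TPM in DSS + GAA against 23.0 ± 6.60 TPM in DSS (0.73 ± 0.23, limma adjusted p = 0.0405).

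Among other J-domain proteins 9 of 33 were lower and 0 were higher (limma, 13 and 0 unadjusted; 1 and 1 in the authors' deposited table), with 1 lower and 4 higher after trimmed mean scaling. Without DSS replicate 1, DSS replicate 4, DSS + GAA replicate 2 or DSS + GAA replicate 4, 3 were lower, and 5 were lower without DSS + GAA replicate 5. Dnajb4, a J-domain protein close to Dnajb1, averaged 16.5 ± 6.22 TPM in DSS + GAA and 36.5 ± 3.75 TPM in DSS (-1.16 ± 0.23, limma adjusted p = 0.00806), and its adjusted p stayed at or under 0.0340 in every alternative. Dnaja4, Dnajb6 and Dnajc8 were lower by 0.51 to 0.78 on the log2 scale and Dnaja1, a main partner of HSP70, by less (-0.38 ± 0.12, limma adjusted p = 0.0390). The calls of these 4 were lost after trimmed mean scaling or median centring.

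HSP90 co-chaperones gave 3 lower and 0 higher of 15 (limma, 6 and 0 unadjusted; 0 and 0 in the authors' deposited table), with 1 lower and 1 higher after trimmed mean scaling. Leaving out DSS replicate 5 gave 6 lower, and 1 was lower with DSS replicates 1 or 4, or DSS + GAA replicates 2 or 5, left out. Fkbp5, a glucocorticoid-induced immunophilin of the HSP90 complex, averaged 49.1 ± 12.4 TPM in DSS + GAA and 98.01 ± 23.7 TPM in DSS (-0.98 ± 0.21, limma adjusted p = 0.0107). Nudc and the muscle myosin chaperone gene Unc45b were the others (limma adjusted p = 0.0270 and 0.0278), and Unc45a missed the threshold (limma adjusted p = 0.0560). Hsp90ab1, the constitutive HSP90, averaged 615 ± 112 TPM in DSS + GAA and 796 ± 159.5 TPM in DSS and did not pass (limma adjusted p = 0.182).

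The cytosolic chaperonin and prefoldin genes gave 4 lower and 0 higher of 14 (limma, 11 and 0 unadjusted; 0 and 0 in the authors' deposited table), among them Cct2, Cct6a, Pfdn2 and Vbp1, with log2 fold changes from -0.57 to -0.42. None was lower after trimmed mean scaling or median centring, and 5 were after quantile normalization. When DSS replicates 1, 2, 4 and 5 were left out in turn 0, 1, 0 and 10 were lower, and when DSS + GAA replicates 1, 2 and 5 were, 1, 0 and 2. Mitochondrial chaperones and proteases gave 2 lower and 0 higher of 17 (limma, 2 and 1 unadjusted; 0 and 0 in the authors' deposited table). They were the matrix protease genes Lonp1 (17.01 ± 4.16 TPM in DSS + GAA against 25.3 ± 2.99 TPM in DSS, limma adjusted p = 0.0411) and Clpp (26.6 ± 3.85 TPM in DSS + GAA against 37.9 ± 1.92 TPM in DSS, limma adjusted p = 0.0170), while after each other scaling 0 were lower and 2 higher. When DSS replicates 1, 2 and 4 were left out in turn 0, 1 and 1 were lower, when DSS + GAA replicate 2 was 1 was lower, and when DSS + GAA replicate 1 was 2 were lower and 1 higher. Hspa9, the mitochondrial HSP70, had 110, 164, 265 and 241 TPM in DSS + GAA replicates 1, 2, 4 and 5, against 327, 340, 292 and 199.5 TPM in DSS replicates 1, 2, 4 and 5, and did not pass (limma adjusted p = 0.122). Nor did the protease gene Spg7 (0.37 ± 0.15, limma adjusted p = 0.0856). As in Hspd1 and Hspe1, DSS + GAA replicate 1 was the lowest library for Hspa9, and DSS replicate 5 the lowest of its group.

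The endoplasmic reticulum list showed 0 lower and 2 higher of 14 entries (limma, 1 and 4 unadjusted, and 0 and 2 in the authors' deposited table). Not all of its genes encode chaperones, and the transcription factor gene Ddit3 enters under each of its identifiers. After trimmed mean scaling 4 were higher, and 0 were higher with either DSS replicate 1 or DSS + GAA replicate 2 left out. With DSS replicates 2 or 5, or DSS + GAA replicates 4 or 5, left out, 1 was higher. Calr, a lectin chaperone of glycoproteins, averaged 1394 ± 51.2 TPM in DSS + GAA and 959 ± 215 TPM in DSS (0.56 ± 0.17, limma adjusted p = 0.0298), and Sdf2l1 averaged 53.8 ± 5.15 TPM in DSS + GAA and 36.8 ± 6.64 TPM in DSS (0.55 ± 0.14, limma adjusted p = 0.0191). The disulfide isomerase gene Pdia3 (0.39 ± 0.15, limma adjusted p = 0.0656) and the HSP70 gene Hspa5 (0.13 ± 0.17, limma adjusted p = 0.576) did not pass, nor did the stress-induced transcription factor gene Ddit3 under either of its identifiers (limma adjusted p = 0.0814 and 0.308). This list had a median log2 fold change of 0.14.

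**Figure D4:**
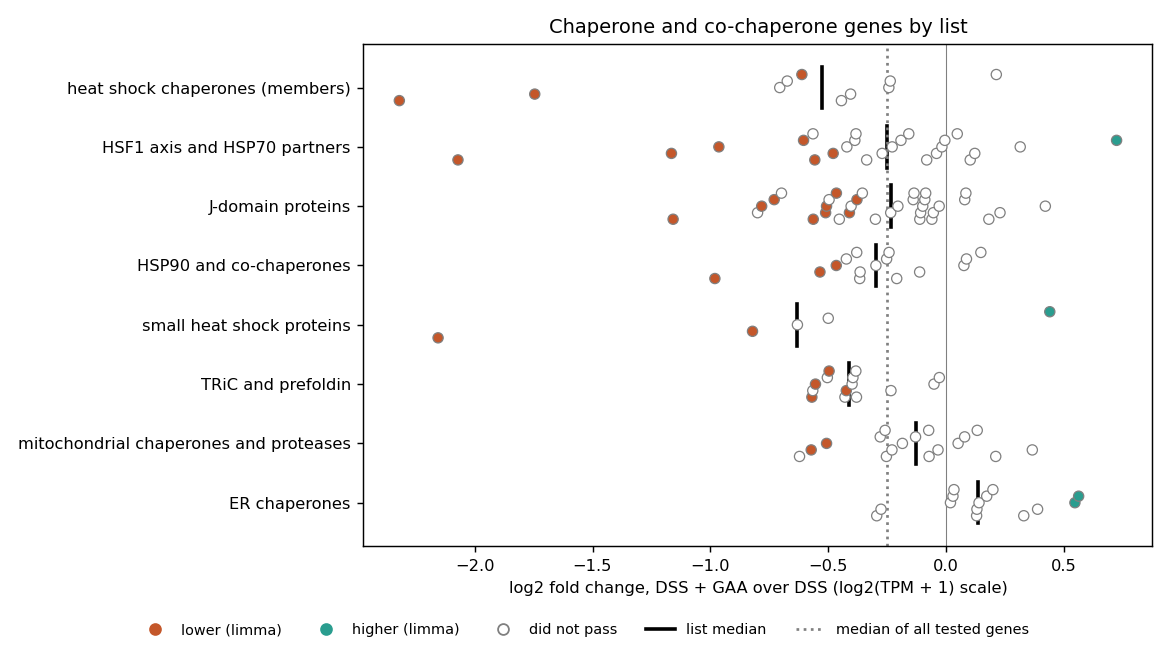
Log2 fold change of DSS + GAA over DSS on TPM as deposited for every tested gene of the member list and of the 7 other chaperone lists, 1 point per gene, coloured by limma call, with list medians as bars. Hspb1, Hspb8, Hspb7 and Hspa2 lie furthest left, from -2.32 to -1.75, and the dotted line is the median of all tested genes at -0.25.

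The members did not share 1 order of libraries. DSS + GAA replicates 4 and 5 were the lowest 2 for Hspa1a, Hspa1b, Hspb1 and Hspb8, whereas DSS + GAA replicate 1 was lowest for Hspa8, Hspd1 and Hspe1 and DSS replicate 5 was lowest for Hsph1. By mean TPM, the order in DSS + GAA was Hspa8, Hsp90aa1, Hspd1, Hspe1, Hspb8, Dnajb1, Hspb1, Hsph1, Hspa1b and Hspa1a, and in DSS it was Hspa8, Hsp90aa1, Hspb1, Hspd1, Hspb8, Hspe1, Dnajb1, Hsph1, Hspa1b and Hspa1a. Within DSS + GAA, Hsp90aa1, Hspd1 and Hspe1 overlapped each other, as did Hspb8, Dnajb1 and Hspb1. Of 13122 other tested genes with a mean of at least 2 TPM, those most like the mean standardised level of the members over the 8 libraries were Wfdc12, Rnf187, Odc1, Hmgn1 and Isy1, with Pearson's r of 0.980 to 0.992. This is a description across libraries that also differ by group. Odc1, the rate-limiting enzyme of polyamine synthesis, had 62.4, 61.0, 80.9 and 65.8 TPM in DSS + GAA replicates 1, 2, 4 and 5, against 145, 144.5, 142 and 76.3 TPM in DSS replicates 1, 2, 4 and 5. As in Hsp90aa1, DSS replicate 5 lay inside the DSS + GAA range.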

How the data were processed

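The authors deposited 1 table with a TPM value per gene and library, and with their own log2 fold change, p-value and false discovery rate per gene, per the file headers. The submitters' processing notes name GATK, SAMtools, edgeR, featureCounts, Subread, Bowtie2, HISAT2 and Trimmomatic, and the mm10 build; versions, roles and the test behind the deposited p-values are not given in the sources used here. Each library adds up to 1000000 TPM, so depth is unknown and no counting interval or detection floor is given. The authors' log2 fold change equals the log2 of mean TPM in DSS + GAA divided by that in DSS, to within 0.000247 for the 10458 genes whose means exceed 5 TPM.

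The members and lists were chosen with earlier results of these data known. Genes with at least 1 TPM in at least 4 of 8 libraries (14217; 4045 left out) were compared on log2(TPM + 1) with limma 3.58.1 (R 4.3.3, statmod 1.5.0). Group was the one covariate; empirical Bayes was robust and followed the variance trend; tests were two-sided, Benjamini-Hochberg over all tested genes. The method was also run on simulated data with independent noise and as many genes raised as lowered. That setting is simpler than these data, whose median shift was not simulated. Named genes were the 10 members, the 4 smallest limma p of each of 7 companion lists plus 7 fixed genes, and the 5 genes most like the members; of the commonest markers of each of 12 lists only summed levels are given. Some list genes are known by 2 identifiers (Ddit3). Positions are those of GENCODE vM21; promoters and starts are RefSeq's. Alternatives were other scalings, pseudocounts (0.1 and 5), filters, empirical Bayes settings, quality weights, a replicate block and leaving out each library; leaving out DSS replicate 5 and DSS + GAA replicate 1 together was added after seeing the data. Replicate numbers were not taken to pair libraries.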

Additional observations from a re-analysis of the deposited data

Results flagged for a closer look

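Outlying libraries were sought among the 10 members and 6 ratios in each group, 32 groups of 4 in all, with Dixon's gap test, which by chance marks about 1 in 20 groups. It marked 4. DSS replicate 5 stood apart from the other 3 DSS libraries in Hsp90aa1, at 199 TPM against 319 to 339.5 TPM. The same library stood apart in the log2 ratio of Hsph1 to Hspa8, at -5.93 against -4.44 to -4.15, and in that of Hspd1 to Hspe1, at 0.27 against 0.50 to 0.51. DSS + GAA replicate 4 stood apart in Dnajb1, at 69.6 TPM against 52.7 to 54.9 TPM in the other 3 libraries of its group. Without DSS replicate 5 and DSS + GAA replicate 1 together, 4 members were lower (Hspb1, Hspb8, Hsp90aa1 and Hsph1) and 0 higher. Of the 13683 genes tested in that setting, 3957 were lower and 1243 higher.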

How the results depend on the processing

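Hspb1 and Hspb8 kept their call and direction in all 19 alternatives. The number of members called lower (3) was 2 after trimmed mean scaling and median centring. It was 5 with array quality weights, and 2 to 5 leaving out single libraries. It was 5 without DSS + GAA replicate 1, when Hspa1a and Hspa1b passed. Among all tested genes, 5391 of 14217 were lower with array quality weights and 4435 of 14103 without DSS + GAA replicate 1. The number of members called higher (0) was 1 after trimmed mean scaling and median centring, and 0 leaving out any single library. Members that did not pass on TPM as deposited turned in sign: Hspa8 was 0.031 after trimmed mean scaling and 0.0609 after median centring, and Hspe1 was 0.0353 and 0.0669, with a range of -0.500 to 0.000516 leaving out single libraries. So did Hsf1, at 0.0578, 0.17 and 0.112 under trimmed mean scaling, quantile normalization and median centring, Unc45a (0.00593) and Ddit3 (0.00946) under median centring, and Hspa5, which ranged from -0.0343 (without DSS replicate 5) to 0.194 leaving out single libraries and was -0.0488 without DSS replicate 5 and DSS + GAA replicate 1 together.

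Companion genes called lower (26) and higher (4) numbered 6 and 14 after trimmed mean scaling and median centring, 15 and 8 after quantile normalization, 44 lower with array quality weights, and 40 lower without DSS replicate 5 and DSS + GAA replicate 1 together. Leaving out single libraries gave 9 to 33 lower and 0 to 8 higher. Over all genes, 4006 lower and 847 higher became 1648 and 1890, 1601 and 1677, and 1308 and 2165 under trimmed mean scaling, quantile normalization and median centring. Array quality weights gave 5391 lower and 1165 higher genes. Leaving out DSS replicate 5 and DSS + GAA replicate 1 together gave 3957 and 1243, and leaving out single libraries gave 1676 to 4435 lower and 361 to 1277 higher. The ratio of Hspa1a and Hspa1b to Hspa8 (-0.30) turned to 0.0544 without DSS + GAA replicate 4, from a low of -0.67.

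With a replicate block the members called lower were 3 and the companion genes called lower 14 and higher 2. Deviations of same-numbered libraries had correlations across genes of 0.18 and 0.15 for numbers 1 and 4, and of -0.11 and -0.03 for 2 and 5. For 1 and 4 the best partner in the other group carried the same number, and for 2 and 5 it did not. Whether equal numbers mark paired libraries is therefore unknown. The fit with array quality weights stopped before reaching its convergence tolerance. The cause of these changes was not tested. Depth is unknown, and the number of libraries limits precision.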
